A study of Mus musculus with 9 samples.

Results

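The genes described here belong to the Notch pathway: 32 genes, chosen by name, among 19938 genes measured in the ventricular zone of newborn mouse brain. The ventricular zone is the cell layer that lines the brain ventricles. All 32 had a probe set with a single gene symbol, and where a gene had several, the brightest on average was used. They comprise 4 receptors, 6 ligands, 5 genes of ligand uptake and receptor cleavage, 3 sugar transferases, 4 genes of the nuclear complex, 4 inhibitors and adaptors, and 6 targets and related genes.

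RNA from uncultured ventricular zone cells was measured on 9 Affymetrix Mouse Gene ST 1.0 arrays. All pups were newborn and of the C57BL/Ka strain, and none was treated. The groups were Prdm16+/+ (WT), Prdm16LacZ/+ (HET, with 1 wild-type allele of Prdm16) and Prdm16LacZ/LacZ (KO, with none), with 3 arrays each. Prdm16 encodes a zinc finger regulator of transcription. The labels give no detail of where LacZ sits in the gene, and they leave unsaid whether each array is a separate pup. The p-values therefore reflect array-to-array spread, possibly technical, and the number of arrays limits the precision.

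Notch signalling passes between touching cells. A ligand on one cell (Delta-like or Jagged) binds a Notch receptor on its neighbour, the receptor is cut by ADAM proteases and then by gamma-secretase, and the freed intracellular part joins RBPJ and a Mastermind protein on DNA to switch on target genes such as Hes5. In the ventricular zone of the developing brain, radial glia are known to receive the signal and to stay undifferentiated, while differentiating neighbours present Delta-like ligands.

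RBPJ is known to bind a core written TGGGAA, and the Hes and Hey repressors bind sites that include CACGTG and CACGCG. The 250 bases before the transcription start were searched for these letters on both strands, in RefSeq promoter sequences of build GRCm38.p6, which held 27 of the 32 genes at 34 starts. The promoters below are shown because 4 belong to genes known to respond to Notch (Hes5, Hey2, Nrarp and Lfng) and Dll1 is the ligand whose KO arrays stood apart from both other groups. Each runs 5′ to 3′ on the gene's strand and ends at the base before the start, with every match in capitals.
Hes5 (chr4:154960673-154960922, plus strand): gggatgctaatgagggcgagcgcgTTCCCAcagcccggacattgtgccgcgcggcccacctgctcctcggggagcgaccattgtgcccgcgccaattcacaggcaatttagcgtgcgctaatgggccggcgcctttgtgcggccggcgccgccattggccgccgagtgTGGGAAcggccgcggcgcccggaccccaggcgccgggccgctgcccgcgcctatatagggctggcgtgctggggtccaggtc
Hey2 (chr10:30842784-30843033, minus strand): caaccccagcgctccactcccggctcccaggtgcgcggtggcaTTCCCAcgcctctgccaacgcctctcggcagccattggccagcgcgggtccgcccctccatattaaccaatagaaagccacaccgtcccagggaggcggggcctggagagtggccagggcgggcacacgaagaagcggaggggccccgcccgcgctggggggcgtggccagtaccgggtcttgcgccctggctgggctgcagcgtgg
Nrarp (chr2:25180508-25180757, plus strand): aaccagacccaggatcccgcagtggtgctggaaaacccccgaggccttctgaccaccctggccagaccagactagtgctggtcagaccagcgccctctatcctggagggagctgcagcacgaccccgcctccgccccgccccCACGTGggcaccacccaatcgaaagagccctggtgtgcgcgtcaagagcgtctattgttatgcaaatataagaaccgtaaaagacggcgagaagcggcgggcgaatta
Lfng (chr5:140607091-140607340, plus strand): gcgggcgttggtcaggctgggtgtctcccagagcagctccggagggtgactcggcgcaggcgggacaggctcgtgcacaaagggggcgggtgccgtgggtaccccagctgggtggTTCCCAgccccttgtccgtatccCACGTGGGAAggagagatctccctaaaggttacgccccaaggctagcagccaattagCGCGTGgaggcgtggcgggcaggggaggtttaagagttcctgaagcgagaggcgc
Dll1 (chr17:15376933-15377182, minus strand): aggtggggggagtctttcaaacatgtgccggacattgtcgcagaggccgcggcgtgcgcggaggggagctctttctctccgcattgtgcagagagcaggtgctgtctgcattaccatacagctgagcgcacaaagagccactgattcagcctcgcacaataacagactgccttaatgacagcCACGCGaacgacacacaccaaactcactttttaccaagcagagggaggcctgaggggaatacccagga

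In Hes5 the core lay at -82 to -77 on the gene strand and at -226 to -221 on the other strand, counted back from the start. Hey2 had 1 core, at -207 to -202 on the other strand. Lfng had cores at -135 and -108, the latter overlapping a CACGTG at -112. The window of Nrarp held a CACGTG at -108. For Dll1 only a window holding CACGCG was printed, so its match, at -68, was fixed by that choice. TGGGAA was present in 8 of the 34 windows of the Notch genes (23.5%) and in 21.6% of all 32851 windows, CACGTG in 4 (11.8%, against 6.02%) and CACGCG in 7 (20.6%, against 7.62%). These matches describe letters, and binding was not measured.

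Prdm16, the targeted gene, lay between 7.23 and 7.62 on the log2 scale in WT, between 6.995 and 7.34 in HET and between 5.69 and 6.41 in KO. It fell by 1.38 (SE 0.18) in KO against WT, and passed (limma, Benjamini-Hochberg adjusted p = 0.010 over all genes). HET lay 0.36 below WT in the mean (log2 difference -0.36, SE 0.18, adjusted p = 0.99). The KO call was lost when the HET arrays were left out of the fit (adjusted p = 0.080) and without WT replicate 1 or 2 (0.076 and 0.069). HET replicate 1 and KO replicate 2 had the lowest array weights, 0.547 and 0.364. Of 14 radial glia and ventricular zone markers, 13 lay above the lower quartile of at least 1 array, and Hopx lay below it on all 9. Xist was high, between 10.04 and 11.002, in WT replicate 1, HET replicate 1, KO replicate 2 and KO replicate 3. The Y-linked gene Kdm5d was at 8.32 in WT replicate 1 and 7.03 in KO replicate 2. High Xist beside Y-linked RNA on the same array points to RNA of both sexes. WT replicate 1 and KO replicate 2 may therefore each hold RNA from several pups, and the arrays were not balanced for sex.

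No Notch pathway gene passed the test in any of the 3 comparisons. A change counted as called at an adjusted p under 0.05, which 0.451% of all genes reached in KO against WT, 0 in HET against WT and 0.206% in KO against HET. The smallest adjusted p among the 32 was 0.59 for Dner in KO against WT, 0.99 in HET against WT and 0.61 for Jag1 in KO against HET, all by limma. At an unadjusted p under 0.05 there were 3 genes in KO against WT (9.38%, against 6.15% of all genes), 2 in HET against WT (6.25%, against 4.05%) and 2 in KO against HET (6.25%, against 6.16%). The array values of the groups did not overlap for 4 genes in KO against WT (12.5%, against 9.98%), for 1 in HET against WT (3.12%, against 6.85%) and for 2 in KO against HET (6.25%, against 6.54%). With so few genes these shares lie near those of all genes.

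The intervals show how large a change in the measured values could have been missed. They cover the spread between arrays only. The processing tends to compress differences of dim probe sets, so changes in the RNA itself may be larger than the intervals show. In each comparison the 95% interval of all 32 log2 changes stayed within a 2-fold change either way. Within a 1.5-fold change lay 30 of the 32 in KO against WT (all but Dner and Hey2), 29 in HET against WT (all but Dll4, Dner and Nrarp) and 31 in KO against HET (all but Hey2). The same held for 94.1%, 94.6% and 93.5% of all genes. The median log2 change over the Notch genes was 0.03 in KO against WT, 0.01 in HET against WT and 0.03 in KO against HET, beside medians between 0.0029 and 0.0064 over all genes. In KO against WT 21 genes lay above 0 and 11 below (65.6% above, against 52.6% of all genes), but 17 lay above 0 after quantile normalization, with array weights or with the Y-linked level as a covariate. In HET against WT 17 lay above 0 (53.1%, against 51.5% of all genes) and in KO against HET 18 (56.2%, against 51%).

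**Figure D1:**
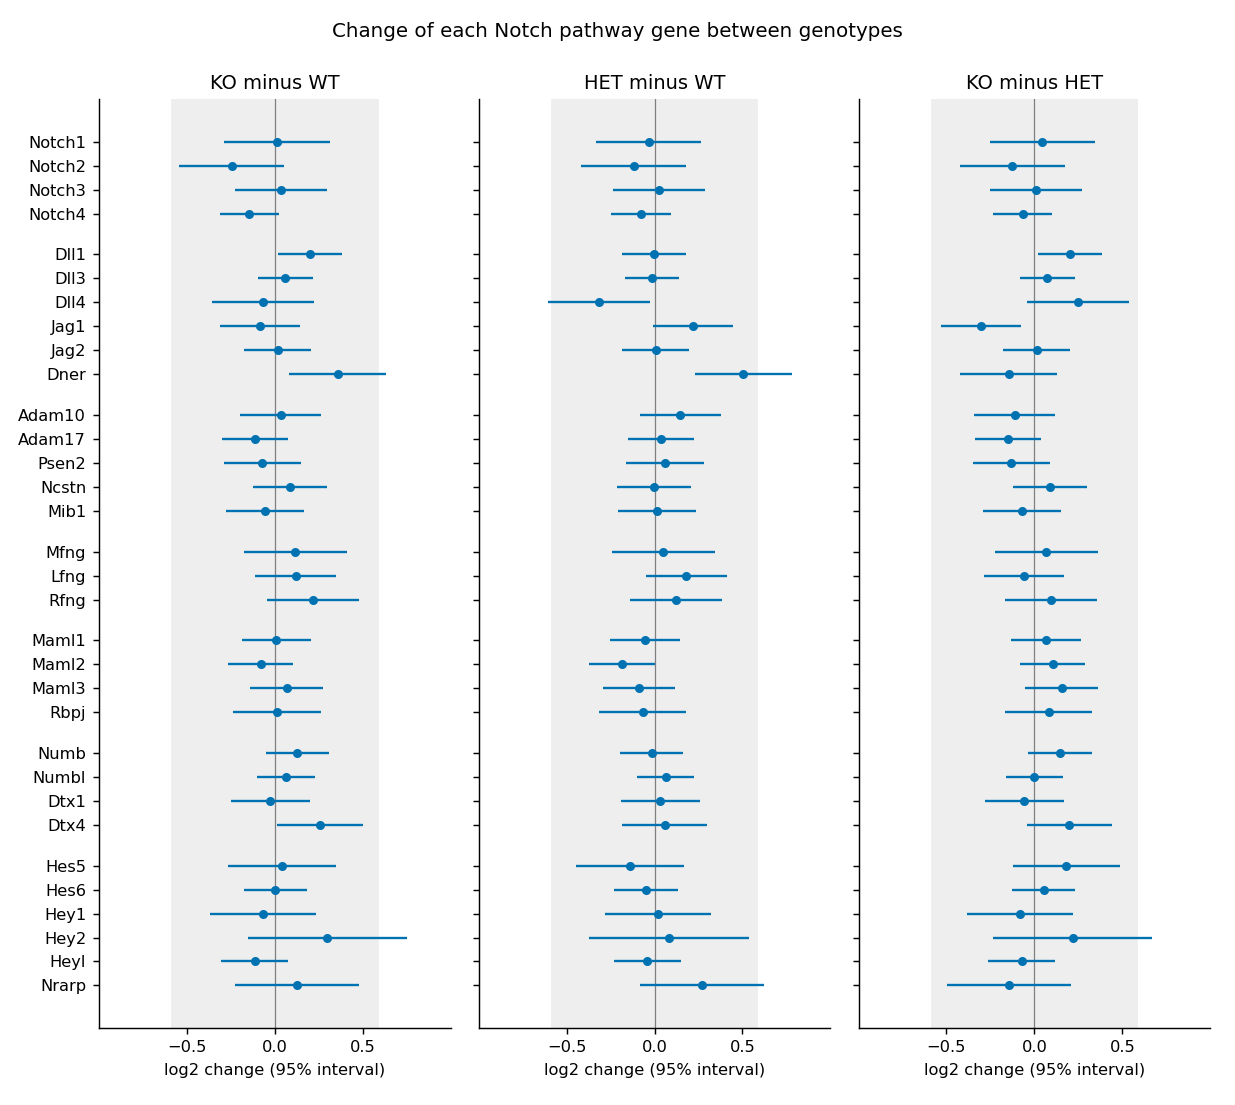
Log2 change of each Notch pathway gene (point) with its 95% interval from the limma fit (line), for KO minus WT, HET minus WT and KO minus HET, with 3 arrays per genotype and the genes ordered by role. The grey band marks a 1.5-fold change either way, and the intervals of Dner and Hey2 in KO minus WT, of Dll4, Dner and Nrarp in HET minus WT and of Hey2 in KO minus HET reach past it.

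None of the 4 receptors passed in any comparison, and their KO differences from WT lay between -0.24 and 0.03. Notch1, the main receptor of neural progenitors, lay at 7.88, 7.88 and 7.87 in WT, 8.03, 8.02 and 7.48 in HET and 7.77, 7.89 and 8.001 in KO. The HET and KO arrays spread on both sides of the WT arrays, and the KO difference was 0.01 (95% interval -0.29 to 0.31). Notch2, which is also expressed by radial glia and astrocytes, had the lowest KO difference of the 32 genes, at -0.24 (SE 0.13, interval -0.54 to 0.05). Its WT arrays were at 8.14, 8.20 and 7.83 and its KO arrays between 7.77 and 7.88, so the lowest WT array lay within the KO range. Notch3, known from vessel wall cells as well as progenitors, differed from WT by 0.03 (SE 0.12) in KO against WT and by 0.03 in HET against WT.

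Notch4, a receptor of blood vessel endothelium, lay at 5.93, 5.91 and 5.84 in WT, 5.84, 5.84 and 5.76 in HET and 5.75, 5.84 and 5.65 in KO. The means descended from WT to HET to KO, but the groups touched or overlapped, and the KO difference of -0.14 (SE 0.076) did not pass. The 14 endothelial markers had summed linear values of 983 to 995 in WT, 912 to 1018 in HET and 958 to 1146 in KO, and 0 of them were called in any comparison, with Slco1a4 and Sox17 below the lower quartile on every array. Astrocyte markers, beside Notch2, summed to 2662 to 3230 in WT, 2544 to 3483 in HET and 1858 to 1975 in KO, with 7 of 10 lower and 3 higher in KO than in WT and 3 called. Ependymal markers summed to 637 to 682 in WT, 560 to 680 in HET and 417 to 496 in KO. All 12 lay lower in KO than in WT, with 0 called, and lower than in HET, with 1 called (Rsph4a, adjusted p = 0.044 by limma). Their part in the Notch2 value was not tested, and in RNA from many cells fewer cells of a type cannot be told apart from less RNA per cell.

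None of the 6 ligands passed in any comparison, and their KO differences from WT lay between -0.09 and 0.36. Dner, a transmembrane protein of neurons that has been described as a Notch ligand, lay at 7.35, 7.47 and 7.32 in WT, 7.59, 8.06 and 8.002 in HET and 7.76, 7.85 and 7.61 in KO. Every HET and every KO array lay above every WT array. The difference from WT was 0.50 (SE 0.12, 1.42-fold, interval 0.23 to 0.78) in HET and 0.36 (SE 0.12, 1.28-fold, interval 0.08 to 0.63) in KO. Neither passed over all genes, with adjusted p-values of 0.99 and 0.59 by limma and unadjusted ones of 0.0021 and 0.016. Over the alternative settings the adjusted p ran from 0.11 to 1 for HET and from 0.14 to 1 for KO. Both comparisons use the same WT arrays. KO lay 0.15 below HET (SE 0.12), and by 0.35 without HET replicate 1 and KO replicate 2.

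Dner was highest in HET replicates 2 and 3, the arrays on which the sum of neuron markers was also highest. The 11 measured markers of postmitotic neurons had summed linear values of 8004, 7787 and 7509 in WT, 7198, 8789 and 9190 in HET and 8122, 7461 and 7691 in KO, with 0 called. Singly, Syt1, Stmn2 and Nefl were highest on these HET arrays, while Map2, Snap25, Nefm, Neurod6, Slc17a7 and Tbr1 peaked on a WT or KO array. Of the 11, 8 lay higher than in WT in HET (median log2 difference 0.14) and 8 in KO (median 0.07). The neurofilament gene Nefm lay 0.44 above WT in KO (SE 0.11, adjusted p = 0.25 by limma), with every KO array above every WT array. The synaptic vesicle gene Syt1 lay 0.40 above WT in KO (SE 0.23). The 3 that lay lower in KO than in WT were Tbr1 (-0.66, SE 0.13, adjusted p = 0.077 by limma), Nefl (-0.33, SE 0.24) and Stmn2 (-0.27, SE 0.14). Nefm and Syt1 were singled out after their values were seen. The part of neuronal content in the Dner values was not tested.

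**Figure D2:**
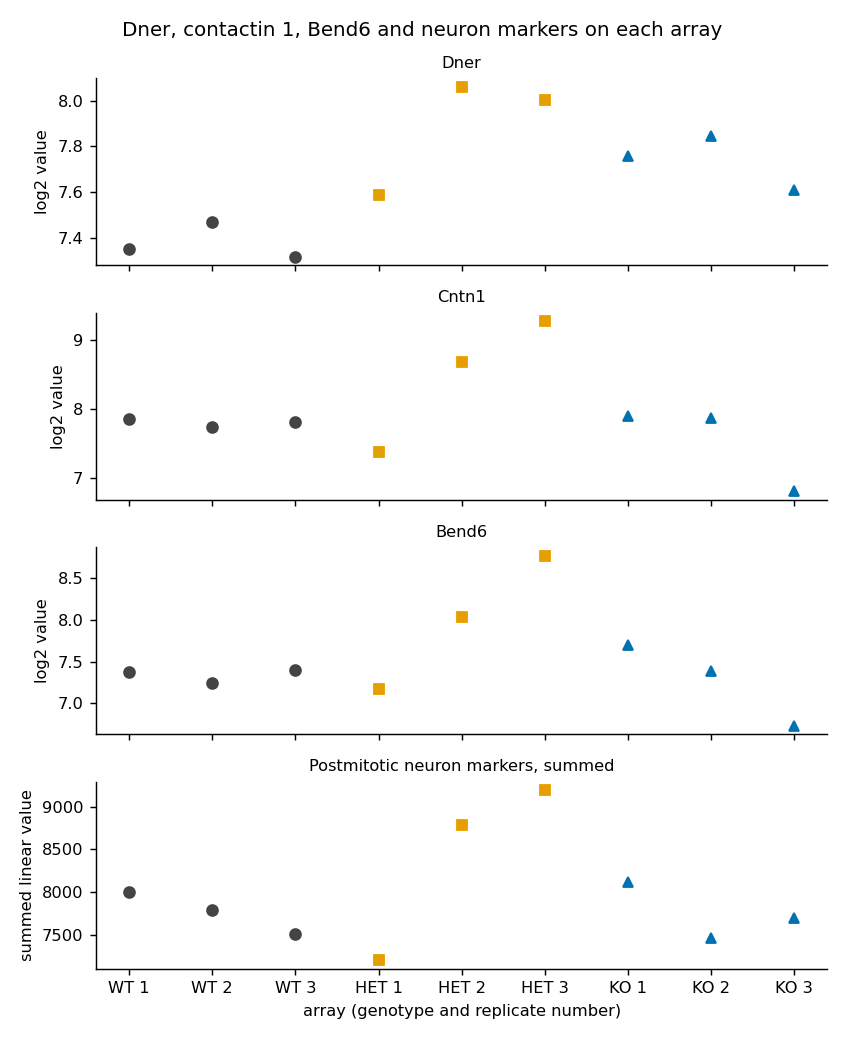
Log2 values of Dner, Cntn1 (contactin 1) and Bend6, and the summed linear values of 11 postmitotic neuron markers, on each of the 9 arrays, with circles for WT, squares for HET and triangles for KO. HET replicates 2 and 3 are highest in all 4 panels, the KO arrays lie above the WT arrays for Dner, and their marker sums span 7461 to 8122.

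Dll1, the Delta ligand that differentiating progenitors present to their neighbours, lay at 6.26, 6.39 and 6.39 in WT, 6.39, 6.26 and 6.39 in HET and 6.51, 6.48 and 6.66 in KO. All KO arrays lay above all WT and HET arrays, which covered the same range. The KO difference was 0.20 (SE 0.082, interval 0.02 to 0.38) both against WT and against HET, with adjusted p-values of 0.74 and 0.76 by limma. HET and WT differed by less than 0.01, with an interval of -0.18 to 0.18. An identical value of 6.39 stood on 4 of the WT and HET arrays, so this closeness rests in part on repeated values. Markers of ventral forebrain progenitors and olfactory neuroblasts summed to 8400 to 9359 in WT, 7955 to 9015 in HET and 9236 to 10092 in KO. Of the 11 measured, 8 lay higher in KO than in WT and 11 higher than in HET, with 0 called. Cortical intermediate progenitor markers summed to 844 to 1050 in WT, 898 to 1092 in HET and 830 to 963 in KO. Of these 7, 5 lay lower in KO than in WT and 5 lower than in HET, with 0 called. Neurod1 and Neurod4 among them lay below the lower quartile on every array. Of the 14 radial glia and ventricular zone markers, 11 lay lower in KO than in WT and 9 lower than in HET, with 0 called. The part of these cell types in the Dll1 value was not tested.

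Dll4, a Delta ligand best known from sprouting vessels, lay at 6.53, 6.49 and 6.44 in WT, 6.44, 5.86 and 6.21 in HET and 6.28, 6.48 and 6.49 in KO. HET replicate 2 was the lowest array, and the HET difference from WT was -0.32 (SE 0.13, adjusted p = 0.99 by limma). Without HET replicate 2 it was -0.16. Jag1, a Jagged ligand, lay at 6.20, 6.28 and 6.32 in WT, 6.52, 6.65 and 6.29 in HET and 6.27, 6.24 and 6.05 in KO. HET lay above KO on every array, by 0.31 in the mean (log2 difference KO minus HET -0.31, SE 0.10, adjusted p = 0.61 by limma), and both groups overlapped WT. Dll3, a Delta relative that acts within the cell, and Jag2 differed from WT by at most 0.06 in either genotype.

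**Figure D3:**
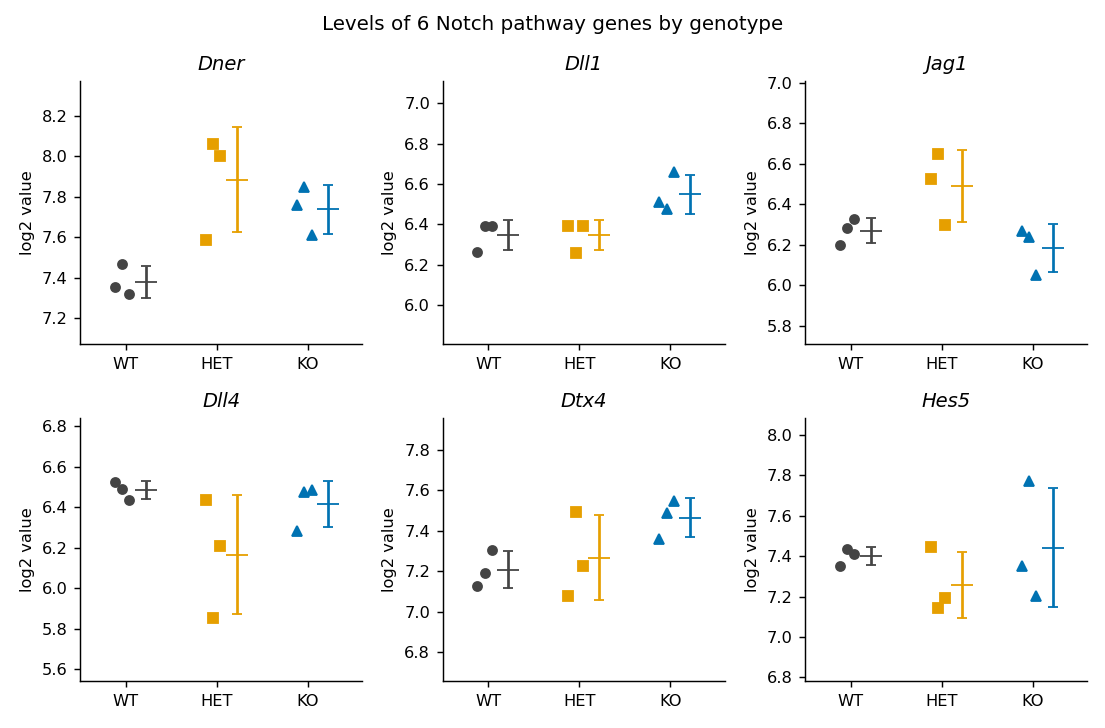
Log2 values of 6 Notch pathway genes on each array, grouped by genotype, with the mean (dash) and SD (bars) of 3 arrays beside the points; every panel spans the same range of 1.3 log2 units. The KO arrays lie apart from WT for Dner, Dll1 and Dtx4, while for Hes5 all groups overlap.

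None of the 5 genes that prepare ligand or cut the receptor passed, and their KO differences from WT lay between -0.11 and 0.09. Adam17, a protease that can shed the receptor's outer part, lay at 7.41, 7.48 and 7.36 in WT, 7.41, 7.57 and 7.38 in HET and 7.41, 7.26 and 7.24 in KO. KO replicate 1 lay among the WT arrays, and the difference of -0.11 (SE 0.084) did not pass. Adam10, the protease that cuts ligand-bound Notch, differed from WT by 0.03 (SE 0.10) in KO and 0.15 in HET. Psen2 and Ncstn, subunits of gamma-secretase, differed from WT by -0.07 and 0.09 in KO, and Mib1, the ubiquitin ligase that drives ligand uptake, by -0.06. The median KO difference of these 5 genes was -0.06.

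The Fringe genes encode enzymes that extend sugars on Notch and so tune which ligands it answers to. All 3 lay above WT in the mean of both other genotypes, except that Mfng lay on the other side of 0 with the Y-linked level as a covariate, with array weights (KO) or without HET replicate 1 (HET), and none passed. Rfng lay at 6.53, 6.41 and 6.52 in WT, 6.33, 6.69 and 6.80 in HET and 6.58, 6.78 and 6.74 in KO. Its KO arrays lay just above all WT arrays, by 0.22 in the mean (SE 0.12, interval -0.04 to 0.48), while HET covered both. Lfng differed from WT by 0.12 in KO and 0.18 in HET, and Mfng by 0.12 and 0.05.

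In the nuclear complex, Rbpj, the DNA-binding partner of Notch, differed from WT by 0.01 (SE 0.11) in KO and -0.07 in HET. Its second probe set lay near 4.59, about the lower quartile of the arrays, and differed from WT by 0.02 in KO. Maml2, a Mastermind coactivator, lay at 7.47, 7.27 and 7.33 in WT, 7.27, 7.05 and 7.20 in HET and 7.29, 7.27 and 7.27 in KO. HET was lowest, at -0.18 against WT (SE 0.084), with HET replicate 1 level with WT replicate 2. A second Maml2 probe set gave -0.18 in HET and -0.09 in KO, beside -0.08 in KO for the first. All 4 genes of this group lay below WT in HET and none passed, and the sign turned for Maml1 without WT replicate 2 and for Rbpj without HET replicate 3 or with its probe sets averaged. Maml1 and Maml3 differed from WT by 0.01 and 0.07 in KO.

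Among inhibitors and adaptors, Dtx4, a Deltex ubiquitin ligase, lay at 7.13, 7.19 and 7.31 in WT, 7.08, 7.49 and 7.23 in HET and 7.36, 7.49 and 7.55 in KO. The KO arrays lay above the WT arrays, by 0.26 in the mean (SE 0.11, interval 0.01 to 0.50, adjusted p = 0.77 by limma), and HET overlapped both. Dtx1, a related Deltex gene, differed from WT by -0.02 (SE 0.10). Numb, an adaptor that restrains Notch and is passed unequally to daughter cells, differed from WT by 0.13 (SE 0.081) in KO and -0.02 in HET, and its relative Numbl by 0.06 in each.

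The target genes gave no common direction. Hes5, the repressor that Notch switches on in radial glia, lay at 7.35, 7.44 and 7.41 in WT, 7.44, 7.14 and 7.19 in HET and 7.35, 7.77 and 7.20 in KO. KO replicate 2 was the highest array and KO replicate 3 below every WT array, so the KO difference of 0.04 (SE 0.14, interval -0.26 to 0.35) was smaller than the KO spread. Without KO replicate 2 it was -0.12 and without KO replicate 3 it was 0.16. Hey2, a related repressor, lay at 5.99, 6.51 and 5.89 in WT, 6.25, 6.30 and 6.08 in HET and 6.75, 5.97 and 6.56 in KO. It varied most of the 32 genes within both WT and KO (SD 0.336 and 0.406), and its KO difference was 0.30 (SE 0.20, interval -0.15 to 0.75), or 0.53 without KO replicate 2 and 0.14 without KO replicate 1.

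Of the other targets, Hey1 differed from WT by -0.07 in KO and 0.02 in HET, and Heyl, known from vessel wall cells, by -0.11 and -0.04. Nrarp, a small feedback inhibitor of the Notch complex, differed from WT by 0.27 in HET (SE 0.16), where replicate 2 was high at 6.79 against 6.30 and 6.17, and by 0.13 in KO. The HET difference was 0.084 without HET replicate 2, and the KO difference 0.014 without WT replicate 3. Hes6, which counters other Hes proteins and is linked to neuronal differentiation, differed from WT by less than 0.01 in KO (interval -0.18 to 0.18). None of the 6 passed in any comparison.

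**Figure D4:**
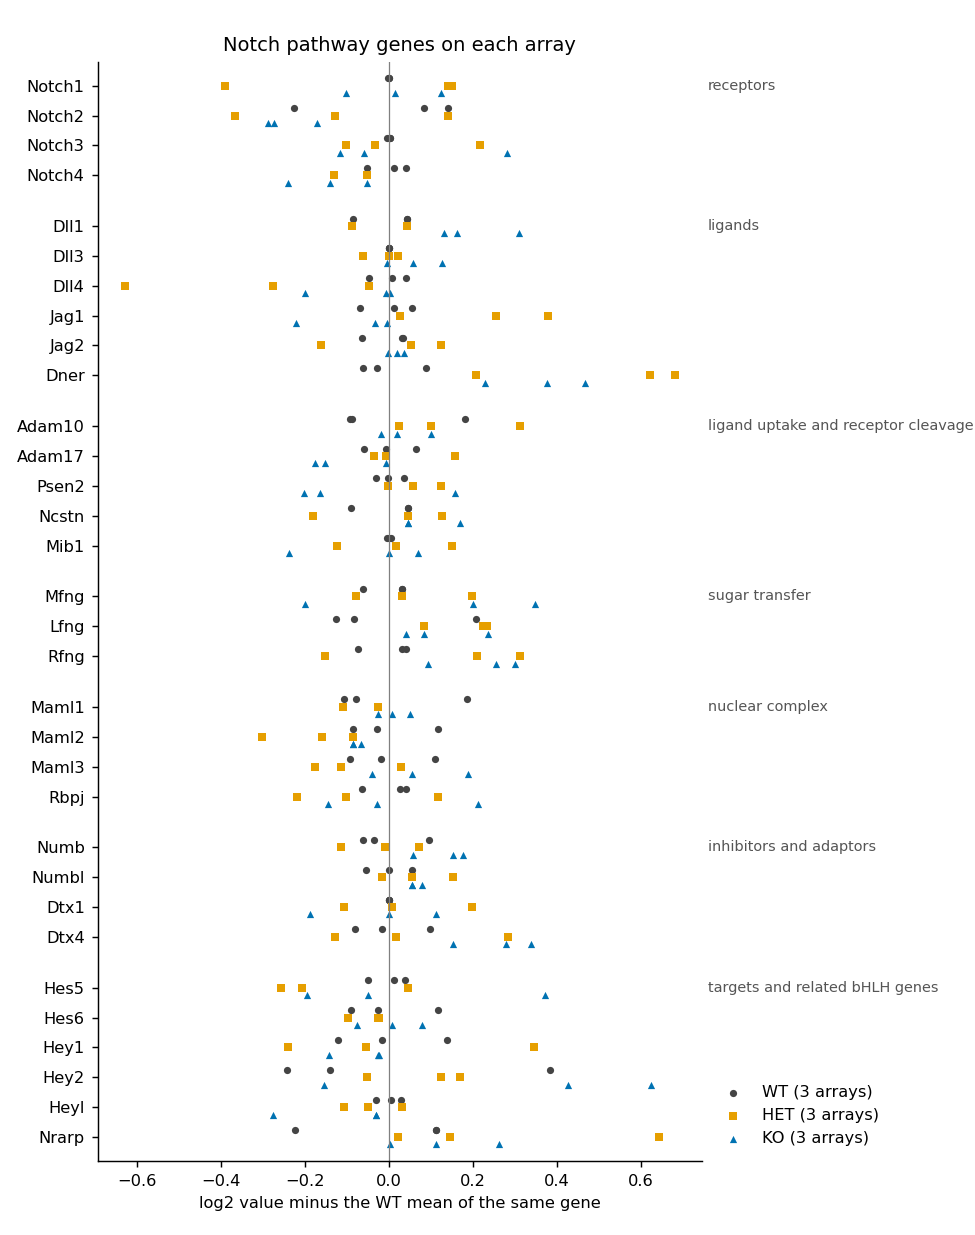
Each array's log2 value of the 32 Notch pathway genes minus that gene's WT mean, with circles for the 3 WT arrays, squares for HET and triangles for KO, and genes grouped by role. The WT points crowd near 0 for many genes (median SD 0.063), and HET (0.144) and KO (0.106) spread wider.

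The spread itself differed between genotypes. Among the 32 genes the median SD came to 0.063 for WT, 0.144 for HET and 0.106 for KO, against 0.077, 0.117 and 0.130 over all genes. Part of the WT values were identical: 8 of the 32 genes (25%) had at least 2 WT arrays with the same value to 6 decimals. In HET 3 genes had such values (9.38%) and in KO 4 (12.5%). Over all genes the shares were 21.2% in WT, 14.9% in HET and 13.0% in KO. Dll3 (5.63) and Dtx1 (7.11) were the same on all 3 WT arrays. Over all 9 arrays, 20 of the 32 genes (62.5%) had some value shared between arrays, as did 62.9% of all genes. Small differences between such arrays cannot be ordered, and the fit pools the spread over genotypes.

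A further list of pathway genes outside the 32 was examined the same way, with 51 symbols listed, of which Nov and Ccn3 name the same gene, and 47 genes measured. None passed in any comparison. By limma, 2 had an unadjusted p under 0.05 in KO against WT (4.26%, against 6.15% of all genes), 1 in HET against WT (2.13%, against 4.05%) and 2 in KO against HET (4.26%, against 6.16%). Their median log2 change was 0.01, -0.01 and 0.04. Furin, the convertase that trims the Notch precursor, lay at 6.15, 6.21 and 6.37 in WT, 6.38, 6.38 and 6.46 in HET and 6.49, 6.49 and 6.48 in KO. The groups followed each other without overlap, but closely. The highest WT array was at 6.374 and the lowest HET value at 6.378. The highest HET array was at 6.461 and the lowest KO array at 6.479. Of the 47 genes, 4 had groups without overlap in KO against WT (8.51%, against 9.98% of all genes). There were 3 in HET against WT (6.38%, against 6.85%) and 5 in KO against HET (10.6%, against 6.54%). The KO difference of Furin, 0.24 (SE 0.078, adjusted p = 0.52 by limma), did not pass. Hes1, another Notch target of progenitors, differed from WT by 0.01 in KO (SE 0.097, interval -0.20 to 0.23) and -0.16 in HET.

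Of the Groucho family corepressors, Tle1, Tle2 and Tle3 differed from WT in KO by 0.16, 0.11 and -0.25 and from HET by 0.33, 0.17 and -0.19, with SEs of 0.13, 0.085 and 0.10, and none passed. Neurl3, a relative of the Neuralized ubiquitin ligases, lay 0.22 higher in KO than in HET (SE 0.085). The contactins are neuronal adhesion proteins that have been described as Notch ligands. Cntn6 was 0.33 higher in HET than in WT (SE 0.14). Its values were 4.51, 4.31 and 4.64 in WT, 4.64, 4.64 and 5.18 in HET and 4.64 on every KO array. Apart from HET replicate 3, all lay near or below the lower quartiles of the arrays (4.53 to 4.68). Cntn1 lay at 7.86, 7.74 and 7.81 in WT, 7.38, 8.68 and 9.27 in HET and 7.90, 7.87 and 6.81 in KO, a spread within HET and KO wider than the difference between their means of -0.92 (SE 0.42). Bend6, a neuronal antagonist of Notch on the same list that was singled out after its values were seen, had the same high arrays, 8.03 and 8.77 in HET replicates 2 and 3 against 7.17 in HET replicate 1.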

How the data were processed

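The authors deposited log2 expression values for 28940 probe sets on 9 arrays, made with RMA, per the submitters' processing notes, which also list affy and limma but give no version. The method adjusts background, scales arrays to each other and combines probes into sets, which tends to compress differences of dim probe sets and can give several arrays the same value. Probe sets were named from the array annotation supplied with the values, of which 21789 had 1 symbol, 1621 several and 5530 were unlisted, and those with 1 symbol gave 19938 genes. No Notch pathway gene lay below an array's lower quartile (4.53 to 4.68). Detection calls were not used here.

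All 9 arrays entered 1 fit in limma 3.58.1 (R 4.3.3; lmFit, eBayes, two-sided, a mean per genotype, no covariate), with Benjamini-Hochberg adjustment over all genes and a threshold of 0.05. Intervals are 95% intervals of that fit, each for a single gene and without adjustment over all genes. The fit was tested on data simulated with independent noise and the same spread in every genotype. Such data lack the unequal spread and repeated values of these arrays.

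The genes, lists and naming rule were chosen with earlier results of these data known. All 32 genes could be named, and array values were given for those with an unadjusted p under 0.05 in any comparison and for the gene of smallest p in KO against WT in each role. Of the further list, the 6 with the smallest p were named, plus Hes1. Tle2 and Bend6 were named outside this rule. Array values of Notch1, Notch2, Dll3, Dtx1, Hes5 and Nrarp and the promoters printed were chosen after their values were seen. Alternatives tried were a block on replicate number, a fit on the compared groups alone, trend and robust settings, array weights, no dim genes, probe set means, every probe set, median centring, quantile normalization, a looser adjusted p of 0.10, a test against a 1.2-fold change, the Y-linked level as a covariate and each array left out. A fit without HET replicate 1 and KO replicate 2 was added after seeing the data.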

Additional observations from a re-analysis of the deposited data

How the results depend on the processing

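The count of Notch pathway genes past the test was 0 in each of the 3 comparisons in all 22 alternative settings, by limma, and so was that of the further list of 47 genes. The lowest adjusted p of any of the 32 genes in any setting was 0.11, for Dner in HET against WT without HET replicate 1 and KO replicate 2. With the replicate number as a block the count was also 0. Same-numbered arrays did not deviate together (correlations between -0.336 and 0.0555 over 9 pairs), so the number was not taken as a pairing. Correlations of differently numbered arrays ran from -0.155 (WT replicate 3 and HET replicate 2) to 0.308 (HET replicate 1 and KO replicate 2). Counts at an unadjusted p under 0.05 ranged from 0 to 5. Of the 96 log2 changes (32 genes, 3 comparisons), 53 kept their sign in all of up to 20 settings, and the sign changes of the others were of values that did not pass. The median log2 change over the 32 genes ran from 0.0057 to 0.042 in KO against WT, from -0.023 to 0.030 in HET against WT and from -0.011 to 0.064 in KO against HET. With 3 arrays a genotype and the spread seen here, the interval's median half-width over the 32 genes was 0.226 on the log2 scale. For a typical gene, smaller changes could not be told from 0 even before adjustment over all genes. The adjusted test asks for larger changes, and Dner at 0.50 in HET against WT did not pass it.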
